A study of Homo sapiens with 3 samples.

Results

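The 9 genes described here belong to the signalling route of the interleukin 6 (IL6) cytokine family that ends at the transcription factor STAT3. They are the ligand LIF, the receptor chains IL6R, LIFR, OSMR and IL6ST, the kinases JAK1 and JAK2, STAT3 itself and the feedback inhibitor SOCS3. They were taken by gene symbol alone, with every probe that carried the symbol, and the rule uses no measured value, although the list was drawn up with earlier results of these data known. This gave 19 of the 58200 probes and 9 of the 43316 gene names on the array. The transcription start windows and probe stretches printed below come from the RefSeq table and from the array files.

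H1975 is an EGFR-mutant human lung adenocarcinoma cell line, labelled as osimertinib sensitive, and osimertinib is an inhibitor of mutant EGFR. OR1 and OR2 are osimertinib-resistant lines that were raised independently from H1975 by stepwise exposure to doses of up to 2 μmol/L during 4 months. All 3 lines were kept in the same serum-containing medium, and whether the drug was present at harvest is not given in the sources used here. Each line was measured once, as total RNA on 1 single-colour Agilent array, so that OR1 and OR2 are each a single selected line against a single parental culture. There are no replicates, no ratio of 2 arrays below has a test, and the number of arrays limits the precision.

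Cytokines of the IL6 family act through receptor complexes that share the chain IL6ST, also known as gp130. IL6 binds IL6R before IL6ST is recruited, LIF uses LIFR with IL6ST, and oncostatin M uses OSMR or LIFR with IL6ST. The kinases JAK1 and JAK2 sit on these chains and phosphorylate STAT3, which then enters the nucleus, and SOCS3 is a STAT3 target that binds the complex and restrains it. In lung cancer cells this route is known as a way to activate STAT3 next to EGFR. The arrays measured mRNA and carry no information on phosphorylation, on surface receptor or on secreted ligand.

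A value called a level below is a scaled intensity, that is, a probe's background-corrected intensity expressed so that the 75th percentile of its array is 100. Levels of different probes cannot be set against each other, because probes differ in how well they bind, so only the same probe is compared between lines. A ratio is the level in OR1 or OR2 divided by that in H1975. Its error is the technical SD on the log2 scale, which comes from the scanner software's error estimate and covers neither culture nor labelling. A gene was called higher at a ratio of at least 2 and lower at a ratio of at most 0.5, and its brightest probe, by the mean log2 level over the 3 arrays, stood for it. Differences in mRNA per cell and in the share of cells that express a gene cannot be told apart in such samples.

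IL6R was the only one of the 9 genes that was called higher in both resistant lines, and LIFR was called higher in OR2. In OR1, 1 of the 9 genes was called higher, where 9.17% of all genes tested were, and none was called lower, where 9.58% were. In OR2, 2 were called higher, beside 7.72% of all genes, and none was called lower, beside 8.70%. Both lines called 1 higher and none lower, against 5.09% and 6.32% of all genes. The count in OR1 is close to the share over all genes. Nothing particular to the 9 genes is read from any of these counts.

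**Figure D1:**
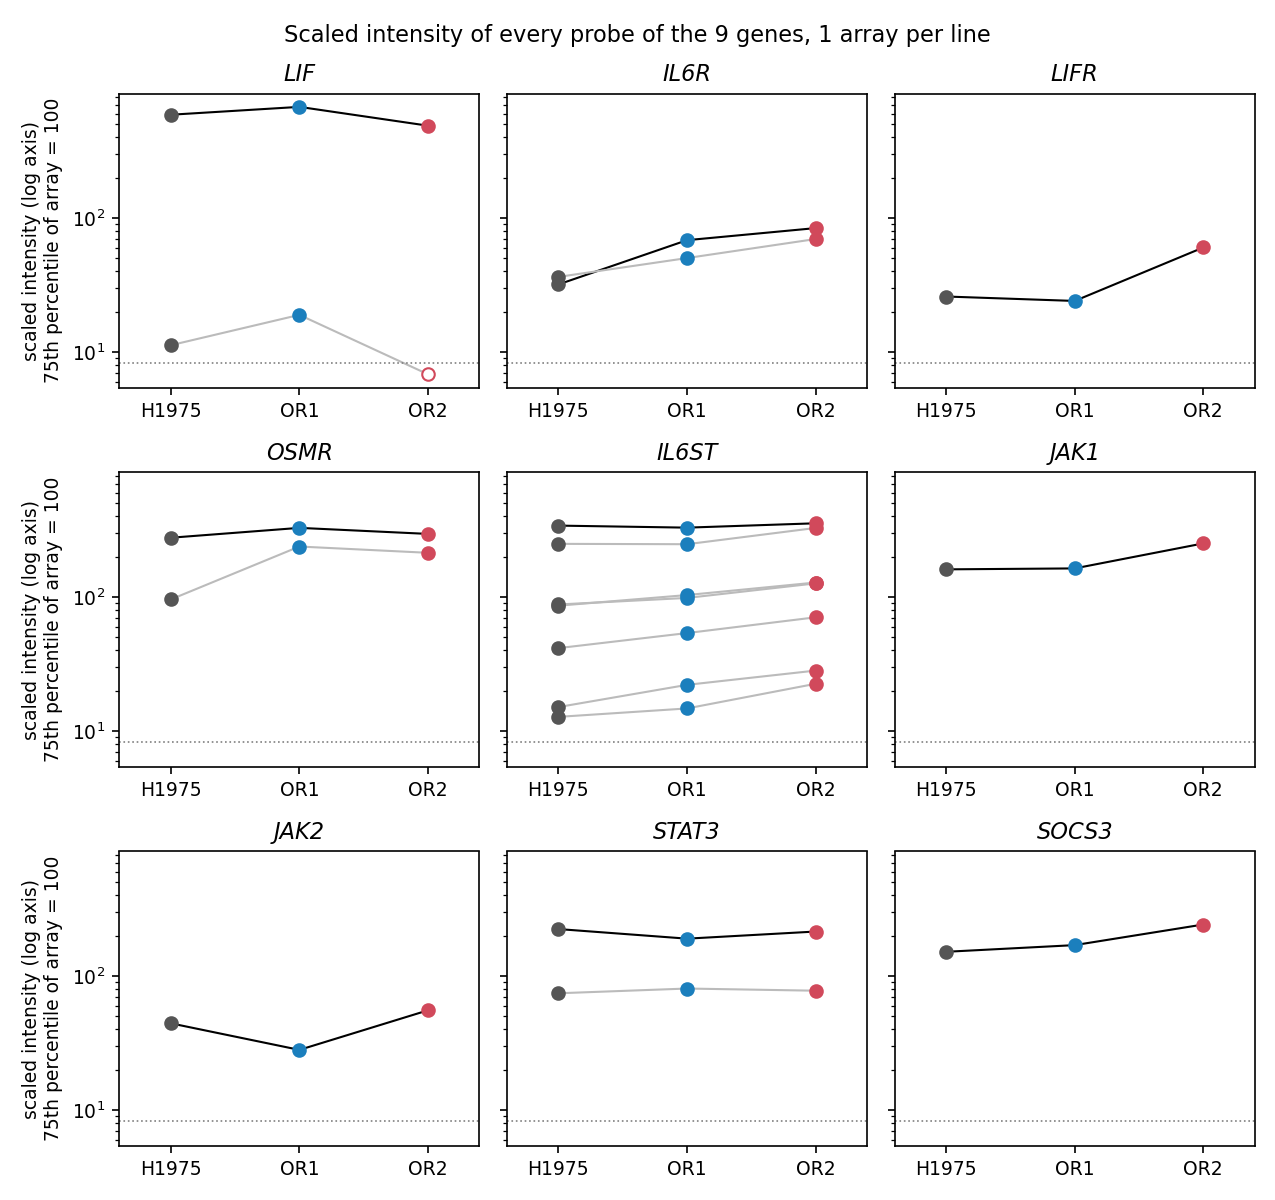
Scaled intensity (log axis, 75th percentile of the array at 100) of every probe of the 9 genes in H1975, OR1 and OR2, with 1 array per line. Black lines join the brightest probe of a gene and grey lines the others, an open circle is a value not well above background and the dotted line is the lowest level well above background, at 8.26 on the OR1 array. IL6R stands at 32.0 in H1975, beside 68.4 (OR1) and 84.2 (OR2), LIFR stands apart in OR2 at 60.3, and the brightest STAT3 probe stays between 190.1 and 224.1.

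In OR1 the probes of OSMR and of IL6R differed more in their ratios than the probes of any other of the 9 genes, so the start of both IL6R probes and of the brightest OSMR probe is shown, in lower case and from the 5′ end, as 30 of its 60 bases. The probe names give the RefSeq transcript that the array design lists for each. LIFR is shown because it differed most between the resistant lines, and the first and last IL6ST probes because they mark the ends of the 7 probes of that gene.
IL6R, NM_000565: attttagaccctattgctgcttgaggcaac
IL6R, NM_001206866: tctacagactacggtttgagctcagatatc
OSMR, NM_003999: agacaaggacagtctcccaacaaacccagt
LIFR, NM_002310: gattggcctggatagatagacatcctagat
IL6ST, NM_001190981: ctggaaaacaaaccattttactattcctaa
IL6ST, the probe nearest the 3′ end: tttgcatgttgaagcctgtataaaacatgg
Positions are on hg19 as the array files give them, and no annotation of that build was used here, so that the exon or untranslated region under each probe is not given. All 19 probes had an accession that the RefSeq table gives to the same symbol.

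LIF, the ligand among the 9 genes, is a secreted cytokine that binds LIFR. Its brightest probe, at chr22:30636713-30636772 on the minus strand, read 589.7 in H1975, with OR1 at 674.9 and OR2 at 488.6. The ratios were 1.14 in OR1 and 0.828 in OR2, and the log2 ratio of each had a technical SD of 0.20. In OR1 the log2 difference, 0.19, was smaller than that SD, and in OR2 the difference of -0.27 was a little larger. The other probe, at chr22:30639661-30639720, lay near the floor, at 11.3 in H1975 and 19.0 in OR1, and at 6.84 in OR2, where it was not well above background. Its ratio was 1.68 in OR1 and at most 0.692 in OR2, so both LIF probes had OR1 highest and OR2 lowest. Neither reached the ratio for a call against H1975.

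IL6R is the chain that binds IL6. The brightest of its probes was designed on transcript variant 1 and lies at chr1:154440037-154440096 on the plus strand. It was the brighter probe through its levels in the resistant lines, so the values compared took part in its choice. Its level in the parental line was 32.0, and it reached 68.4 in OR1 and 84.2 in OR2. Both resistant lines were above the parental line, with a ratio of 2.14 (technical SD 0.23 on the log2 scale) in OR1 and of 2.63 (log2 1.40 ± 0.22) in OR2. Among all genes tested these ratios stood at the 92.2 percentile in OR1 and the 96.1 percentile in OR2. OR2 over OR1 was 1.23, with a log2 difference of 0.30 and an SD of 0.21. One technical SD takes the OR1 ratio below 2 and leaves the OR2 ratio above it.

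The probe of IL6R transcript variant 3, at chr1:154407568-154407627 and nearer the 5′ end, had the same order of lines with smaller ratios. Parental cells had a level of 36.4, OR1 had 50.3 and OR2 had 69.8, giving ratios of 1.38 and 1.92. This probe was the brighter one in H1975, and by it IL6R would be called in neither line. The log2 ratios of the probes lay 0.63 apart in OR1 and 0.46 apart in OR2. Across 4358 genes with several measured probes the median of this range was 0.31 in either line, and IL6R stood at the 76.9 percentile of it in OR1 and the 65.0 percentile in OR2.

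The calls of IL6R also depended on the processing. In OR2 its ratio was 1.72 with normexp background correction, below the ratio for a call. In OR1 it was 1.99 when arrays were scaled on the median, 1.87 without scaling, 1.41 on the spike-in probes and 1.53 with normexp. The normexp setting adds an offset of 50 to every corrected intensity, which by itself draws the ratios of dim probes towards 1. Before scaling, the brightest IL6R probe had an intensity of 50.4 in H1975. In a limma fit that set the resistant lines, as a group of 2, against H1975, 1 residual degree of freedom was left and the single parental array is assumed to have the spread of the resistant pair. The log2 difference of IL6R in this limma fit was 1.25 ± 0.33 (SE), and its adjusted p was 0.177. None of the 9 genes had an adjusted p under 0.05 in limma in either direction, beside 0.928% of all genes higher and 1.66% lower. At an unadjusted p under 0.05, IL6R was the 1 gene that was higher in limma and none was lower, where 2051 of all 22418 genes were higher and 2126 lower.

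LIFR, which pairs with IL6ST to receive LIF, had a single probe, at chr5:38475942-38476001 on the minus strand. It read 26.0 in H1975 and 24.1 in OR1, against 60.3 in OR2. OR2 stood apart from the other lines, which did not differ by more than the technical SD. The ratio was 0.927 in OR1 (log2 -0.11 ± 0.25) and 2.32 in OR2 (log2 1.21 ± 0.23), at the 40.9 and the 94.7 percentile of all genes. OR2 was above OR1 by 1.32 ± 0.23 on the log2 scale, at the 98.9 percentile. By brightest probe, LIFR was the only one of the 9 genes past a ratio of 2 between the resistant lines, a call that 2.48% of all genes received. By the same probes none was past 0.5, as 2.89% of all genes were. The second LIF probe, near the floor, was past it, with OR2 over OR1 at most 0.411. With normexp background correction the LIFR ratio in OR2 was 1.58, which is below the ratio for a call. That setting adds an offset of 50, and before scaling the LIFR intensity was 40.9 in H1975 and 97.6 in OR2.

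OSMR binds oncostatin M together with IL6ST, and its probes gave different pictures. The brightest, designed on transcript variant 1 at chr5:38933387-38933446 on the plus strand, read 277 in H1975, while OR1 had 328.2 and OR2 had 295.8. Its ratios were 1.18 (log2 0.24) and 1.07 (log2 0.09), with an SD of 0.20 on the log2 scale, so that OR2 did not differ from H1975 beyond it and OR1 did by little. The probe of transcript variant 2, which lies nearer the 5′ end, read 96.0 in H1975, while OR1 had 238.2 and OR2 had 213.9. By that probe OSMR was higher in both resistant lines, with ratios of 2.48 (log2 1.31 ± 0.21) and 2.23 (log2 1.16 ± 0.21). The log2 ratios of the probes lay 1.07 apart in OR1 and 1.06 apart in OR2, which put OSMR at the 91.9 and the 92.4 percentile of the range between probes. OR2 over OR1 was 0.901 and 0.898 by the respective probes, so by either probe the resistant lines did not differ beyond an SD of 0.20.

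IL6ST, the chain shared by the whole family, had 7 probes between chr5:55230909 and chr5:55265550 on the minus strand. The brightest, which lies nearest the 3′ end, read 341.2 in parental cells, 329.4 in OR1 and 355 in OR2, with ratios of 0.966 and 1.04. Its accessions list a transcript of the pseudogene MEIS3P1 beside IL6ST, and the file places 15 bases of it on chromosome 5, so its signal cannot be assigned to IL6ST alone. The other 6 probes list IL6ST alone and gave ratios from 0.994 to 1.46 in OR1 and from 1.31 to 1.87 in OR2. All 6 were therefore highest in OR2, and none reached a ratio of 2.

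The IL6ST probe nearest the 5′ end, at chr5:55265491-55265550, had levels of 15.1, 22.2 and 28.3 in H1975, OR1 and OR2. Its ratio was 1.46 in OR1 (log2 SD 0.28) and 1.87 in OR2 (log2 SD 0.27). The probe at chr5:55238513-55238572 read 249.4 in parental cells against 247.9 (OR1) and 327.7 (OR2). Its ratios, 0.994 and 1.31, were the lowest of the 6. The remaining probes had OR2 ratios of 1.70, 1.49, 1.44 and 1.77 in order from the 5′ end, and the last of these was near the floor, with 12.8 in H1975. The range between all 7 probes was 0.60 in OR1 and 0.85 in OR2 on the log2 scale, at the 75.2 and the 86.3 percentile over genes with several probes. A range tends to grow with the number of probes, and genes with fewer probes are in that comparison. The IL6ST percentiles are therefore not read as unusual disagreement.

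**Figure D2:**
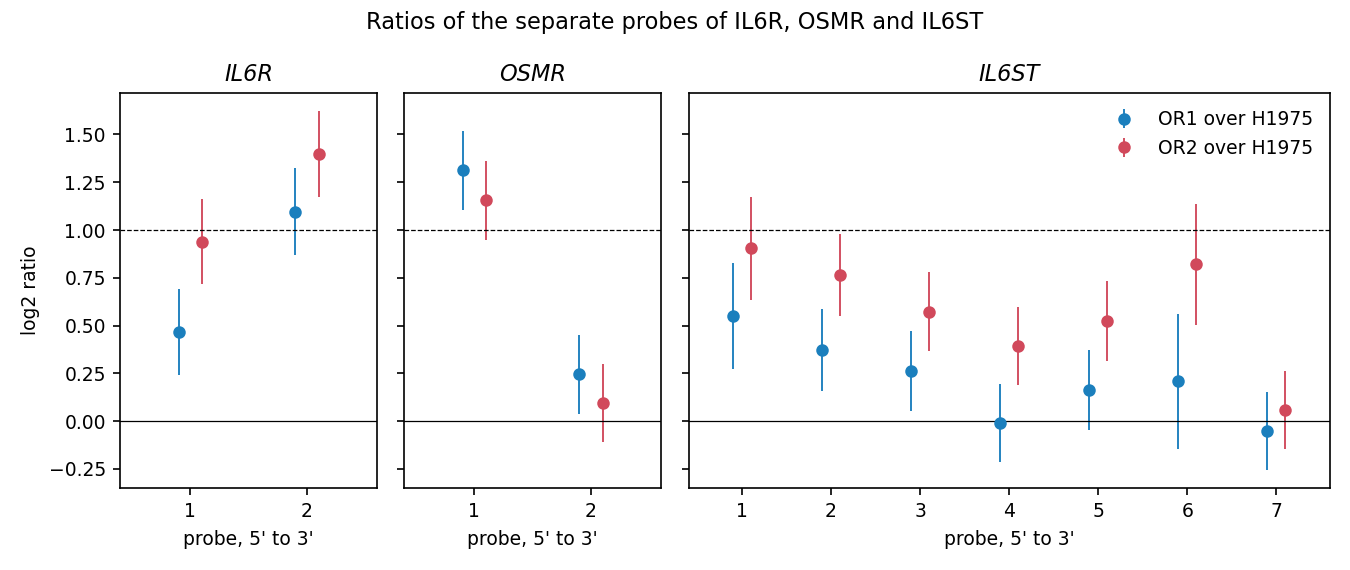
Log2 ratio to H1975 of each probe of IL6R, OSMR and IL6ST, with probes in order from the 5′ end of the gene, OR1 in blue and OR2 in red, and bars of 1 technical SD. The dashed line is a ratio of 2. The probes of OSMR lie 1.07 apart in OR1, and the last IL6ST probe, whose accessions also list MEIS3P1, has ratios of 0.966 and 1.04.

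JAK1 and JAK2 are the tyrosine kinases bound to these receptor chains. JAK1, by a probe at chr1:65299773-65299832 on the minus strand, read 161 in H1975 and 163.6 in OR1, and 251.3 in OR2. The ratio was 1.02 in OR1 and 1.56 in OR2, with an SD of 0.21 on the log2 scale, and OR2 over OR1 was 1.54. OR2 was thus above the other lines by about 3 times the SD of the log2 ratio (log2 0.64 over H1975), without reaching the ratio for a call.

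JAK2, by a probe at chr9:5127355-5127414 on the plus strand, read 44.4 in the parental cells, 28.2 in OR1 and 55.6 in OR2. It was below H1975 in OR1, with a ratio of 0.634 (log2 -0.66 ± 0.24), and above it in OR2, with a ratio of 1.25 (log2 0.32 ± 0.22). These ratios stood at the 16.4 percentile of all genes in OR1 and at the 71.8 percentile in OR2. By brightest probe, only JAK2 of the 9 genes lay on opposite sides of H1975 by more than the technical SD in both lines. The second LIF probe, near the floor, did so too, with log2 0.75 ± 0.32 in OR1 and at most -0.53 ± 0.44 in OR2. For JAK2, OR2 over OR1 was 1.97 (log2 0.98 ± 0.24), just under the ratio of 2 and at the 97.4 percentile. Under normexp background correction the JAK2 log2 ratios to H1975 were -0.23 in OR1 and 0.16 in OR2, neither beyond its technical SD.

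STAT3, the transcription factor of the route, reached the ratio for a call by neither of its probes. The brightest probe, at chr17:40474404-40474463 on the minus strand, read 224.1 in H1975, while OR1 and OR2 had 190.1 and 214.9. Its ratio was 0.848 in OR1 (log2 -0.24 ± 0.21) and 0.959 in OR2 (log2 -0.06 ± 0.20). The other probe, at chr17:40465923-40465982, had 74.4, 80.7 and 77.8, with ratios of 1.08 and 1.05. The probes put OR1 on opposite sides of H1975, and apart from the brightest probe in OR1 no STAT3 ratio differed from 1 by more than its technical SD. The range between them was 0.36 in OR1 and 0.12 in OR2.

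SOCS3, the STAT3-induced inhibitor of the receptor complex, was measured by a probe at chr17:76353127-76353186 on the minus strand. H1975 and OR1 had levels of 151.7 and 170.2, and OR2 had 242.4. The ratio was 1.12 in OR1 (log2 0.17 ± 0.21) and 1.60 in OR2 (log2 0.68 ± 0.21), at the 58.2 and the 85.6 percentile of all genes. OR2 lay above both other lines, with OR2 over OR1 at 1.42, and H1975 and OR1 did not differ beyond the SD.

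Across the 9 genes the median ratio was 1.02 in OR1 and 1.25 in OR2, where the medians over all genes tested were 1.03 and 0.961. Of the 9, 5 had a ratio above 1 in OR1, beside 52.3% of all genes, and 7 in OR2, beside 46.4%. OR2 was above OR1 for 7 of the 9 genes, with a median ratio of 1.23 beside 0.953 over all genes, 43.5% of which were above 1. The genes below were LIF and OSMR. Both resistant lines share the H1975 array, so their ratios are not independent of each other. If the IL6ST probe that lists MEIS3P1 is left out, a choice made after seeing the data, the median in OR2 is 1.31 and the counts of calls are the same.

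**Figure D3:**
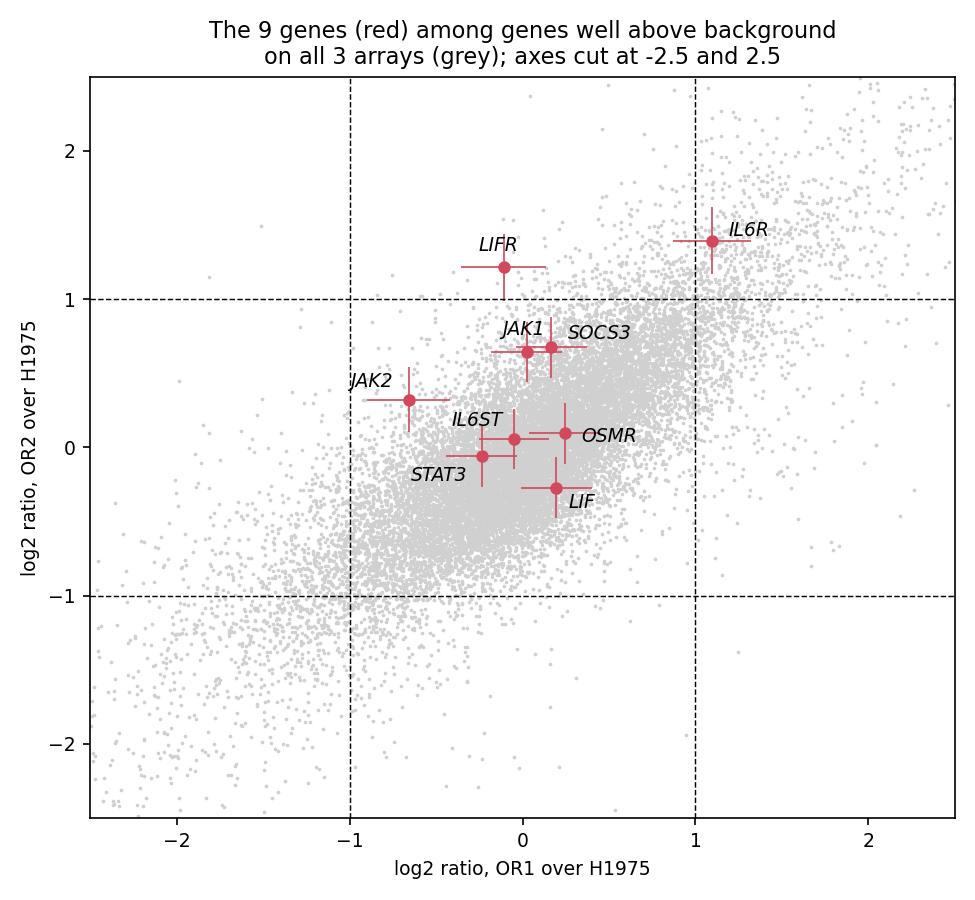
Log2 ratio of OR2 over H1975 against that of OR1 over H1975 for the 9 genes (red, brightest probe, bars of 1 technical SD) and for the 18591 genes well above background in every line (grey), with dashed lines at ratios of 2 and 0.5. IL6R lies past 2 on both axes at 2.14 and 2.63, LIFR on the OR2 axis alone at 2.32, and JAK2 lies left of 0 and above it at 0.634 and 1.25.

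The genes whose pair of ratios was nearest to that of IL6R, of 18590 compared by distance on the log2 scale, were lnc-RAB40AL-1 with 2.14 and 2.64, ZNF558 with 2.15 and 2.60, and the transcript ENST00000567456 with 2.16 and 2.60. This likeness rests on 3 arrays. The 20 genes nearest to LIFR on chromosome 5 had median log2 ratios of 0.36 in OR1 and 0.41 in OR2, and those nearest to OSMR 0.32 and 0.41. The probes of LIFR and OSMR lie close together on that chromosome, so these sets can overlap and are not read as separate regions. The 20 genes around IL6ST had medians of -0.80 and -0.42, and those around JAK2 had -0.62 and -0.34. JAK2 itself had -0.66 in OR1, close to that median, and 0.32 in OR2, on the other side of 0 from it. The genes around SOCS3 had medians of -0.39 and -0.46, where SOCS3 had 0.17 and 0.68. LIFR lay away from the medians around it in both lines, below in OR1 at -0.11 and above in OR2 at 1.21. The brightest IL6ST probe lay above the medians around it in both lines. JAK1 in OR2, at 0.64, lay above a median of 0.002. Around IL6R the medians were -0.07 and -0.10. The part of chromosomal position in these values was not tested.

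Of the 9 genes, 8 had start windows in the RefSeq table on GRCh38.p14, 16 in all, and LIF had no entry. The 250 bases before each start were searched for TTCNNNGAA, the palindromic core that STAT proteins bind, which reads the same on both strands. It was found in 2306 of all 35116 windows, or 6.57%. Among the 16 it was found in 2, both of them windows of LIFR, which has 3. They are printed with the motif in capitals, 30 bases on each side, from the minus strand.
LIFR, chr5:38595532-38595600, motif 165 bases before the start: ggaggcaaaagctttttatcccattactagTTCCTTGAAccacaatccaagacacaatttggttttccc
LIFR, chr5:38557611-38557679, motif 182 bases before the start: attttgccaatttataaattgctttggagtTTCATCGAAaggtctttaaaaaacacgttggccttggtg
These are matches of letters, no binding was measured, and LIFR itself had a ratio near 1 in OR1 and of 2.32 in OR2. The windows of IL6R, IL6ST, OSMR, JAK1, JAK2, STAT3 and SOCS3 do not hold these letters.

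The rest of the pathway was described with a list of 37 genes, all on the array, of which 34 were tested. It comprised other ligands, receptor chains, JAK kinases, STAT factors and inhibitors. In both resistant lines 3 were called higher, CTF1, EBI3 and IL27RA, and 3 lower, IL11 and CISH among them. Counted line by line, OR1 had 4 of the 34 higher and 4 lower, beside 9.17% and 9.58% of all genes, and OR2 had 6 higher and 4 lower, beside 7.72% and 8.70%. The shares of all genes called in both lines were 5.09% and 6.32%. The median ratio over the 34 was 0.991 in OR1 and 1.13 in OR2, and over all genes it was 1.03 and 0.961.

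The ligands held the largest of these differences. IL11, an IL6 family cytokine that signals through IL11RA and IL6ST, read 4748 in parental cells, 512 in OR1 and 357 in OR2, with ratios of 0.108 and 0.0753. CTF1, which encodes cardiotrophin and uses LIFR with IL6ST, had 72.9, 492 and 498, or 6.74 and 6.82 times the parental level. EBI3, the subunit that joins IL27 and related cytokines, read 25.7 in H1975, with OR1 at 153 and OR2 at 239 and ratios of 5.96 and 9.30. These 3 genes thus separated H1975 from both resistant lines by more than the LIF, IL6R or LIFR ratios did. IL6 itself read 356 in the parental line, 257 in OR1 and 361 in OR2, so that its OR2 ratio, 1.02, was near 1 and its OR1 ratio was 0.723. The cytokine CLCF1, at 588, 317 and 185, was called lower in OR2 with a ratio of 0.316 and had 0.540 in OR1. OSM and IL31 were not well above background in any line.

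Among the other receptor chains, IL27RA, which pairs with IL6ST to receive IL27, had 256 in parental cells, 664 in OR1 and 837 in OR2, with ratios of 2.60 and 3.27. IL11RA was not called, with ratios of 1.51 and 1.45, and CNTFR was well above background in no line. None of the 8 other JAK and STAT genes was called in both lines. JAK3 had ratios of 1.86 and 2.69 and TYK2, a kinase that also binds IL6ST, 1.99 and 2.04, so TYK2 passed in OR2 by a margin far below its SD of 0.20. STAT4, at 39.6 in parental cells, 9.84 in OR1 and 33.9 in OR2, was called lower in OR1 with a ratio of 0.248. That OR1 level lay near the floor of its array, 8.26, and the log2 ratio had an SD of 0.33. The array holds 2 STAT4 probes, of which only the brightest is given. STAT4 was the only gene of this list past a ratio of 2 between OR2 and OR1.

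Of the 15 inhibitors, CISH, a STAT5-induced relative of SOCS3, was called lower in both lines, at 127 in the parental line, 49.5 in OR1 and 55.7 in OR2, with ratios of 0.391 and 0.440. SOCS2 was called higher in OR1, at 3.25, and SOCS5 in OR2, at 2.43. SOCS1, the inhibitor closest in function to SOCS3, had ratios of 1.88 and 1.85 and was not called. In the limma fit on the resistant pair, the log2 difference was 2.76 ± 0.31 (SE) for CTF1 and -3.47 ± 0.38 for IL11.

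**Figure D4:**
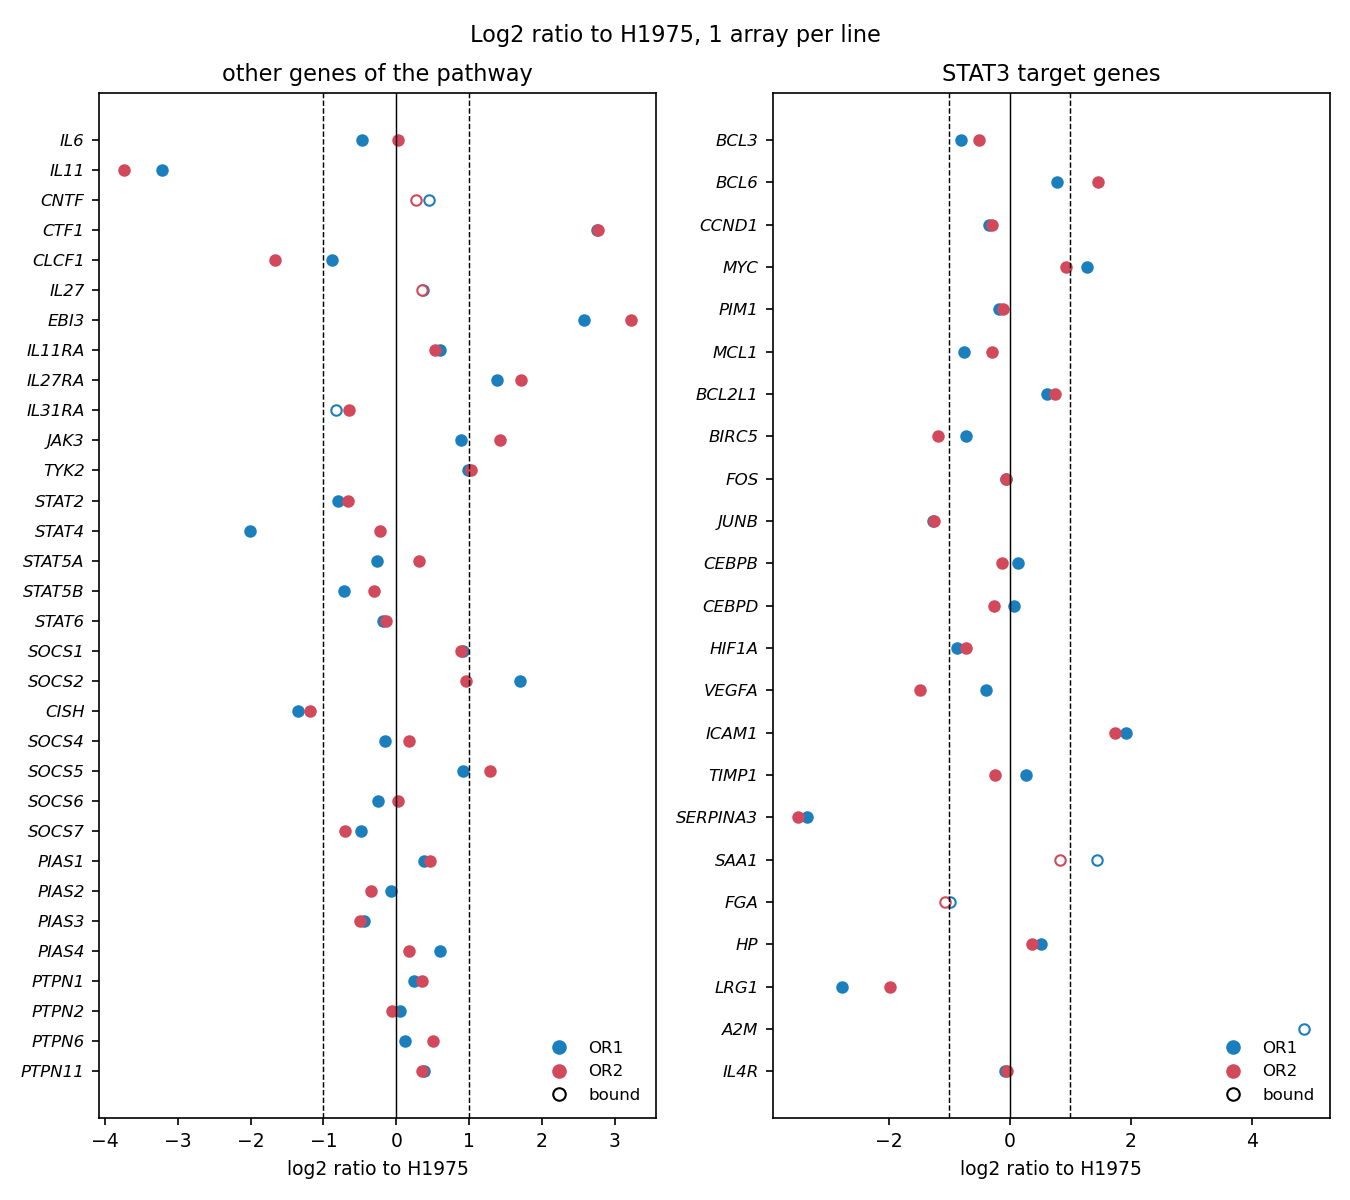
Log2 ratio to H1975 in OR1 (blue) and OR2 (red) for tested genes of the rest of the pathway, on the left, and for the tested STAT3 target genes, on the right, by the brightest probe. Open circles are bounds, where one side was not well above background, and dashed lines are ratios of 2 and 0.5. IL11 lies far left in both lines, CTF1 and EBI3 far right, and SERPINA3 and LRG1 are the lowest of the targets.

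A list of 28 genes known as STAT3 targets, SOCS3 aside, was read in the same way, and 23 of them were tested in OR1 and 22 in OR2. In both resistant lines 1 was called higher and 3 lower, beside 5.09% and 6.32% of all genes. ICAM1, an adhesion molecule, was the higher one, at 183 in parental cells, 690 in OR1 and 609 in OR2, with ratios of 3.77 and 3.33. SERPINA3, an acute-phase protease inhibitor, had 386, 37.8 and 34.3, with ratios of 0.0980 and 0.0889. LRG1, an acute-phase glycoprotein, had 1061, 155 and 270, with ratios of 0.146 and 0.254. JUNB, a transcription factor of the AP-1 group, had 546, 226 and 229, with ratios of 0.414 and 0.420. These 4 genes did not share a direction, and they are targets of other factors too.

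In OR1 4 target genes were called higher and 3 lower, beside 9.17% and 9.58% of all genes. In OR2 2 were called higher and 6 lower, beside 7.72% and 8.70%. MYC had ratios of 2.41 and 1.89, BCL6 of 1.71 and 2.74, and VEGFA of 0.765 and 0.356. A2M, an acute-phase protein, was well above background in OR1 alone, where its level of 232 was at least 29.1-fold higher than in H1975. The median ratio over the tested targets was 0.941 in OR1 and 0.836 in OR2, below the 1.03 and 0.961 over all genes. In the limma fit the log2 difference of SERPINA3 was -3.42 ± 0.31 (SE). The fibrinogen chain FGA was well above background in H1975 alone. Its limma value therefore rests on signals below background in both resistant lines and is not read. The FGA ratios are bounds of at most 0.504 and 0.476.

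Quality and identity of the arrays were checked on values of the whole series. Each array had 62976 spots, no saturated spot and between 45.6% and 45.9% of its probes well above background, and the 9 genes had 18 of 19 probes at that standard in every line. The keratins KRT8 and KRT18 had ratios between 0.806 and 1.12, whereas EPCAM, CDH1, KRT7 and KRT19, epithelial markers, were called lower in both lines. NKX2-1, a lung lineage factor, read 529 in H1975, while OR1 had 133 and OR2 had 722. Of the leukocyte markers CD3E and MS4A1 were not well above background, PTPRC lay near the floor at 12.7 to 15.0 and CD14 had ratios of 4.25 and 6.56. Of the 6 fibroblast markers COL3A1, DCN and PDGFRA were not well above background, COL1A2 was called lower in both lines, COL1A1 had ratios of 1.45 and 0.183, and LUM was called higher in OR1 at a ratio of at least 5.43. None of the 4 endothelial markers was called in both, and of the 5 lung lineage markers SFTPC was called higher in both. The part of any of these in the results was not tested.

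**Figure D5:**
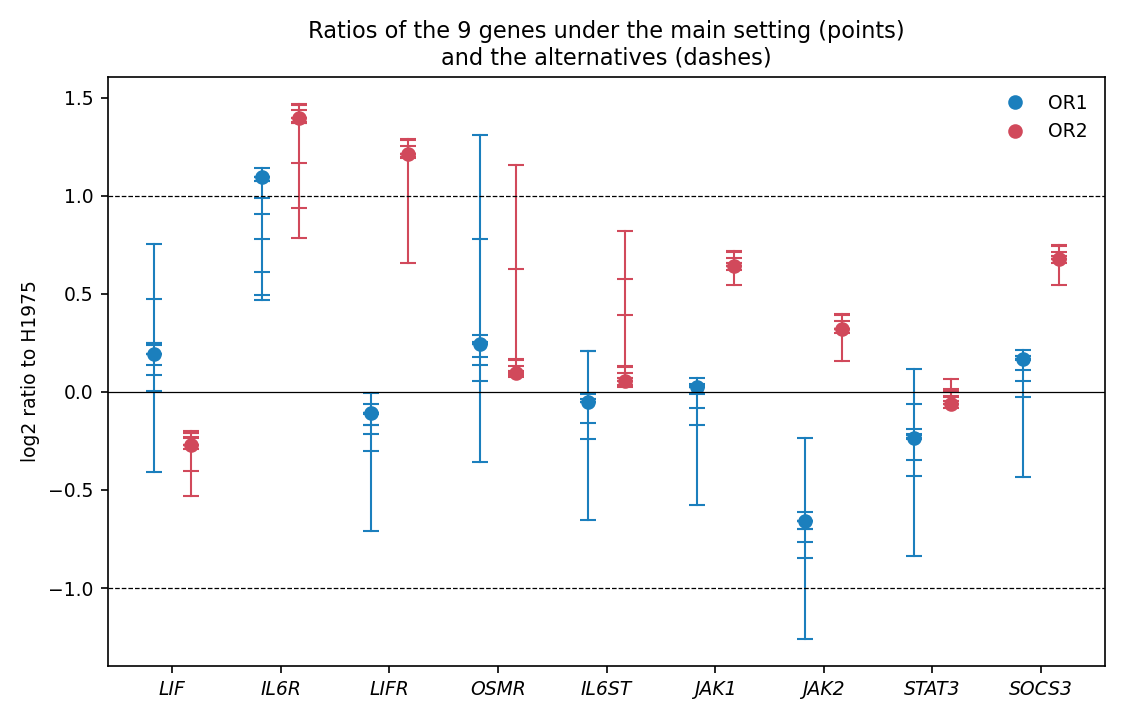
Log2 ratio to H1975 of each of the 9 genes in OR1 (blue) and OR2 (red), with the reported value as a point and the values under the other processing settings as dashes. The IL6R ratio in OR1 ranges from 1.38 to 2.21 and that of LIFR in OR2 from 1.58 to 2.44, on either side of the dashed line at 2.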

How the data were processed

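The authors hybridized labelled complementary RNA of each line to 1 Agilent SuperPrint G3 array, and all 3 arrays were on 1 slide. The authors' scanner files, made with Agilent Feature Extraction (10.7.1.1 in the file headers, 9.5.1.1 in the submitters' processing notes), hold for each spot an intensity corrected for background and not scaled between arrays. A second deposited table holds normalized intensities on a linear scale, and its log2 values lay a median of 0.0013 from the scanner intensities after quantile normalization. Samples were grouped by their labels.

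Control spots and spots marked as outliers (45 to 61 per array) were left out, and the 75th percentile of each array, an intensity of 138 to 162, was subtracted on the log2 scale. Where one side of a ratio was not well above background, it entered at the higher of its own level and the array's lowest level well above background. The ratio is then a bound. The thresholds of 2 and 0.5 are those of the methods. Tested genes were well above background in at least 1 line compared. The median technical SD of a log2 ratio was 0.205, and probes with 10 spots on an array had an SD between spots of 0.0524 to 0.0548. limma 3.58.1 (R 4.3.3) was an alternative, with 3.04 prior degrees of freedom. Python 3.11.15, pandas 2.3.3 and matplotlib 3.10.9 were used for the rest, and the steps were tested on simulated data.

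The list of 9 genes, applied by symbol, the pathway, target and marker lists, the rule for named genes and 15 alternatives were chosen with earlier results of these data known, and leaving out the 3 probes that list another gene was added after seeing the data. Named are all 9 genes, listed genes called in both lines the same way or in opposite ways, and the 3 genes nearest in pattern to a gene called in both. Listed genes called in 1 line or in none, and the markers, were named after their values were seen. CD68 and LYZ of the leukocyte list were not found under these names, and the endothelial markers measured had levels of 10.5 to 46.6. The values of some listed genes and the sequence of a probe are not reported here.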

Additional observations from a re-analysis of the deposited data

Results flagged for a closer look

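JAK2 had a ratio to H1975 of 0.634 in OR1 and of 1.25 in OR2, each farther from 1 than its technical SD and on opposite sides of it. This depended on the processing. Under normexp the JAK2 ratios were 0.850 in OR1 (log2 -0.23) and 1.12 in OR2 (log2 0.16). Both were within the technical SDs of 0.24 and 0.22, and normexp by itself draws the ratios of dim probes towards 1. Spike-in scaling gave 0.418 in OR1, low enough for a lower call, and it shifts the median of all genes in OR1 by -0.60. Whether OR1 and OR2 differ in JAK2 was not tested, since each has 1 array. Of the listed target genes, TIMP1, a metalloproteinase inhibitor, moved the opposite way, with 1.20 in OR1 and 0.839 in OR2, and this difference was not tested either.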

How the results depend on the processing

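No paired analysis was possible because each line has 1 array. Of 234 values of the 9 genes under the alternatives, 204 moved by less than their technical SD, 30 moved by more and none reversed a call. Part of the 204 could not move. The brightest probes were well above background in every line, so the settings on that filter left all values unchanged. Genes with 1 probe could not change with the choice of probe. Leaving out probes that list another gene could change IL6ST alone. The 204 are therefore not read as a measure of stability. Of the 9 genes, 1 was called higher in both lines as reported, and 0 were with scaling on the median or on spike-ins, with no scaling, with normexp, the median over probes, a ratio of 4 or limma. With the dimmest probe the count stayed at 1, but the gene changed. IL6R, at 1.38 in OR1 and 1.92 in OR2, lost its calls, and OSMR was called instead, at 2.48 and 2.23. The 3 pathway genes higher in both became 5 with the percentile over probes well above background everywhere, 8 at a ratio of 1.5 and 1 by limma, and the 3 lower became 7 at 1.5. The 1 target higher in both became 2 with quantile normalization or the authors' values, 4 with no filter, 0 at a ratio of 4, 5 at 1.5 and 0 by limma. The 3 targets lower became 5 with spike-in scaling, 1 at a ratio of 4 and 6 at 1.5. Apart from limma, the shares of all genes called under these settings are not given here. Nothing particular to the lists is therefore read from these counts. The median log2 ratio of the 9 genes in OR1 went from 0.02 to -0.58 with spike-in scaling, which shifts the median of all genes in OR1 by -0.60. In OR2 it went from 0.32 to 0.63 with the median over probes and 0.68 with the dimmest probe. IL6R in OR2 went from 2.63 to 1.72 with normexp. Spike-in scaling also put JAK1, LIF, OSMR and SOCS3 below 1 in OR1, at 0.670, 0.755, 0.781 and 0.739. Normexp adds an offset of 50 to every corrected intensity, which by itself draws the ratios of dim probes towards 1. Beyond that, the cause of the differences between settings was not tested. Signal over background limits the dim probes most, and the second LIF probe and the first and sixth IL6ST probes had the largest technical SDs of the 19.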
